A study of Mus musculus with 36 samples.

Results

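The genes described here encode the 5 Rel subunits of NFκB (*Rela*, *Relb*, *Rel*, *Nfkb1* and *Nfkb2*), the 3 subunits of the IKK complex (*Chuk*, *Ikbkb* and *Ikbkg*), the IKK-related kinase gene *Ikbke* and *Map3k14*, which encodes the kinase NIK. They were chosen by gene symbol, and 10 of the 53421 genes in the count data carry these symbols. All 10 were expressed highly enough to be among the 16710 genes tested over the 36 libraries. A conditionally immortalised mouse line, described by the labels as fibroblast-like chondrocytes, had been transfected with a non-targeting siRNA pool (NT) or an siRNA pool against *Ift88* (IFT88siRNA), which encodes an intraflagellar transport protein of the primary cilium, and its poly(A) RNA sequenced. The labels give wild-type cells and 50 nM siRNA, while the study's methods give a lower siRNA concentration. IL-1β was given at 10 ng/ml, and cells were taken after 1 or 2 h, after 4 or 8 h, or after 24 h, with cells that received no IL-1β as the 0 h group. Each of the 12 conditions had 3 replicates. The study asked whether IFT88 shapes the transcriptional response to this cytokine through NFκB. All libraries came from the same line, which was released from immortalisation before use, so the data speak for that line only. Neither the labels nor the methods say whether replicates were separate cultures, and the p-values measure the spread between these libraries.

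NFκB proteins bind DNA as dimers of Rel subunits. The products of *Rela*, *Relb* and *Rel* (RelA or P65, RelB and c-Rel) carry a transactivation domain, whereas *Nfkb1* and *Nfkb2* encode precursors that are processed to DNA-binding subunits without one and that also hold other subunits in the cytoplasm as IκB-like proteins. In the canonical pathway downstream of the IL-1 receptor, the IKK complex of the kinases IKKα (*Chuk*) and IKKβ (*Ikbkb*) and the scaffold NEMO (*Ikbkg*) phosphorylates IκB, which is degraded and frees the dimers. In the alternative pathway NIK activates IKKα, and the *Nfkb2* product is processed. In cartilage, NFκB is known for inducing the inflammatory mediators and proteases that follow exposure to IL-1β.

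The targeted gene followed the labels. *Ift88* was between 5.83 and 10.2 CPM (read counts scaled to a common library total) in the 18 NT libraries and between 1.43 and 3.10 in the 18 IFT88siRNA libraries, a mean log2 difference of −1.77 (SE 0.0587). The scaling used the TMM method of edgeR. Total counts were 19337022 to 38304127 per library, with a median of 21672803.5 in NT and 25873754 in IFT88siRNA, and replicate pairs differed by more than counting error (chi-square per degree of freedom 1.65 to 10.0). The part of depth in the siRNA differences was not tested. Of 12 chondrocyte markers, 6 had a mean over 1 TPM (transcript abundance scaled to transcript length and library total), including *Sox9* and *Col2a1*, but *Acan* and *Col9a1*, which define mature cartilage cells, had a mean under 0.1 TPM. All 11 fibroblast markers exceeded 1 TPM. Leukocyte markers gave 2 of 10 over 1 TPM (*Cd68* and *Lyz2*), with *Ptprc*, *Adgre1* and *Cd3e* under 0.1 TPM. No endothelial marker of 6 exceeded 1 TPM, and 1 of 6 epithelial markers (*Cdh1*) did. Summed TPM ranged from 30.5 to 162 in NT and 38.4 to 141 in IFT88siRNA for the chondrocyte markers, from 4177 to 8194 and 4275 to 7974 for the fibroblast markers, and from 7.73 to 16.03 and 7.45 to 13.9 for the leukocyte markers, so that the ranges of the siRNA groups overlapped.

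In GRCm38 the Rel subunit genes lie at chr19:5637483-5648130 (*Rela*), chr7:19606217-19629438 (*Relb*), chr11:23736847-23770970 (*Rel*), chr3:135584655-135691547 (*Nfkb1*) and chr19:46304320-46312385 (*Nfkb2*). The kinase and scaffold genes lie at chr19:44073335-44107480 (*Chuk*), chr8:22659212-22706589 (*Ikbkb*), chrX:74393290-74453854 (*Ikbkg*), chr1:131254343-131279606 (*Ikbke*) and chr11:103219762-103267472 (*Map3k14*). Exons of *Nfkb2* share 18.1% of their bases with exons of 2 genes on the other strand, *Psd* and AC114539.1, and those of *Ikbkg* share 5.15% with *G6pdx*. The share was 2.48% for *Ikbke*, 2.06% for *Map3k14* and 0 for the other 6 genes. The counting was run with default settings, which do not use strand, so reads from the shared bases cannot be told apart and the counts of *Nfkb2* carry the most uncertainty.

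The promoters of these genes are of interest because NFκB can bind the promoters of its own subunit genes. Windows of 300 bases around the transcription start were held in RefSeq (GRCm38.p6) for 7 of the 10 genes, that is for all but *Relb*, *Nfkb1* and *Ikbkb*. Each window runs from 250 bases before the start and is given 5′ to 3′ on the strand of its gene. The first 5 belong to genes that IL-1β raised, in order of the size of the rise, and the last 2 to the genes that did not reach a 1.5-fold change. Capitals mark a κB-like motif, read on either strand as GGG, any 3 bases and TTCC. Where RefSeq gives several starts (3 for *Nfkb2*, 4 for *Ikbkg*), the first is shown.
Rel (chr11:23770920-23771219, minus strand): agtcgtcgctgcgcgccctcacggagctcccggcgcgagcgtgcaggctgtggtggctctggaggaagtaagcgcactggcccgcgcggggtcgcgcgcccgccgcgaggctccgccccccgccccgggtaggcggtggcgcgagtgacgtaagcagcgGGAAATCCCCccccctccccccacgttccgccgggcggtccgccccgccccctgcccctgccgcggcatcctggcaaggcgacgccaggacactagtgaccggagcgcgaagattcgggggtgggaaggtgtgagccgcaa
Nfkb2 (chr19:46304487-46304786, plus strand): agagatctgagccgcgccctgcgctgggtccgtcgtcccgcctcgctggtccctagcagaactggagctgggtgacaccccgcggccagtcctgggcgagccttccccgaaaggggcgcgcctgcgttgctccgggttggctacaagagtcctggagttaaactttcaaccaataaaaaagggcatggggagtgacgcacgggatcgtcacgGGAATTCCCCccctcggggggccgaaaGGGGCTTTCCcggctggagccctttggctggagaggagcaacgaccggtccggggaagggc
Ikbke (chr1:131279514-131279813, minus strand): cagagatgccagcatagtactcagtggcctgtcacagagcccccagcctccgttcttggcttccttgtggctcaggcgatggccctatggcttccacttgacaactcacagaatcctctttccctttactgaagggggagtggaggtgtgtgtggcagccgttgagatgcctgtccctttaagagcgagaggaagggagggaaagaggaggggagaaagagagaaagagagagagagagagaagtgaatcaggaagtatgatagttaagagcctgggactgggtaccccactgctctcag
Rela (chr19:5637291-5637590, plus strand): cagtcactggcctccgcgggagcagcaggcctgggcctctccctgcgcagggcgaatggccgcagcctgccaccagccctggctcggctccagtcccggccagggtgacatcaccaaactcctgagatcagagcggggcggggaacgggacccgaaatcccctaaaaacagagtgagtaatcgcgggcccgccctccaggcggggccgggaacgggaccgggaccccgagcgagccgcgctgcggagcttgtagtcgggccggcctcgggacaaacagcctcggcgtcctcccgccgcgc
Map3k14 (chr11:103267352-103267651, minus strand): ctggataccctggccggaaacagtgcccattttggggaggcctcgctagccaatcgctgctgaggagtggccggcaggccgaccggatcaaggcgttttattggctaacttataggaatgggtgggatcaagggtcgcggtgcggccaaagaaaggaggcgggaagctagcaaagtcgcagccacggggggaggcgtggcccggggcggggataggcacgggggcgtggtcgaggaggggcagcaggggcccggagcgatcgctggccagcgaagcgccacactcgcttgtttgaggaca
Chuk (chr19:44107428-44107727, minus strand): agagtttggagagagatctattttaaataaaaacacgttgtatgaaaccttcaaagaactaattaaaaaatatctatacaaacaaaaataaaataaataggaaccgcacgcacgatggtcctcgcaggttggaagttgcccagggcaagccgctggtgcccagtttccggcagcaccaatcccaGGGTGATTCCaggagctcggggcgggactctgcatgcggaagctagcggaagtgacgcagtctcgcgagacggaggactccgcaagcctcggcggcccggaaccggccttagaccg
Ikbkg (chrX:74393041-74393340, plus strand): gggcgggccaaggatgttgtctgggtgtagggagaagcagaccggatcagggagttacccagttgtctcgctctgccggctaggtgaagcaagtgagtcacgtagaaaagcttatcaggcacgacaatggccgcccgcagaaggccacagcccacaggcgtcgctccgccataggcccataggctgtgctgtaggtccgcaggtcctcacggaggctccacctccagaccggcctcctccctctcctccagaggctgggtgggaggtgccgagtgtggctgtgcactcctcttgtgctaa

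The motif occurred in 5.56% of all 32851 RefSeq windows of this length. In the windows shown it was present in *Rel* (first base at position −91 from the start), in *Nfkb2* at 2 positions (−38 and −11) and in *Chuk* (−66). None of the letters matched in the windows of *Ikbke*, *Rela*, *Map3k14* and *Ikbkg*. The windows of the 2 other *Nfkb2* starts overlap and also held matches, and the 3 other *Ikbkg* starts held none. A looser form, GGG, any 5 bases and CC, occurred in 50.8% of all windows and so separates few genes. It includes every match of the first form. A match of letters is a description of the sequence, and binding was not measured in these data.

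Before IL-1β, transcripts of the 10 genes differed widely in level. Levels of different genes are set side by side only in TPM, which is scaled to transcript length. In NT at 0 h *Chuk* was at 91.3 ± 3.47 TPM, *Rela* at 90.8 ± 1.48, *Nfkb2* at 83.2 ± 2.92 and *Nfkb1* at 72.7 ± 1.41 (SD, n = 3). *Ikbkb* (42.8 ± 2.07), *Ikbkg* (31.1 ± 2.05) and *Relb* (27.6 ± 2.50) formed a middle range. *Map3k14* (14.3 ± 0.739), *Ikbke* (8.85 ± 0.640) and *Rel* (6.95 ± 0.685) were lowest. Between neighbours in this order, the replicates of *Chuk* and *Rela* overlapped, as did those of *Ikbkg* and *Relb*, and all other neighbours were separate. The order depends on how length is taken, since with CPM divided by the total exonic length of each gene, 2 of the 10 genes kept their rank and *Ikbkb* moved from rank 5 to rank 8.

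IL-1β raised 7 of the 10 genes by more than 1.5-fold at 4 h in NT, as was the case for 16.3% of all genes tested. The 7 genes were the 5 Rel subunits, *Ikbkb* and *Ikbke*. *Rela*, *Relb*, *Rel* and *Nfkb2* had their highest mean at 2 h and *Nfkb1* at 4 h in both siRNA groups. Libraries of that time lay above those of every other time, except for *Nfkb2* in NT, where 2 and 4 h overlapped. Over the 5 time points together, 8 of the 10 genes were called in NT (adjusted p under 0.05 and a fold change over 1.5), compared with 50.0% of the 16048 genes tested, and *Ikbkg* and *Chuk* were the 2 that were not. The same 8 genes were called in IFT88siRNA, where 48.2% of all genes were.

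**Figure D1:**
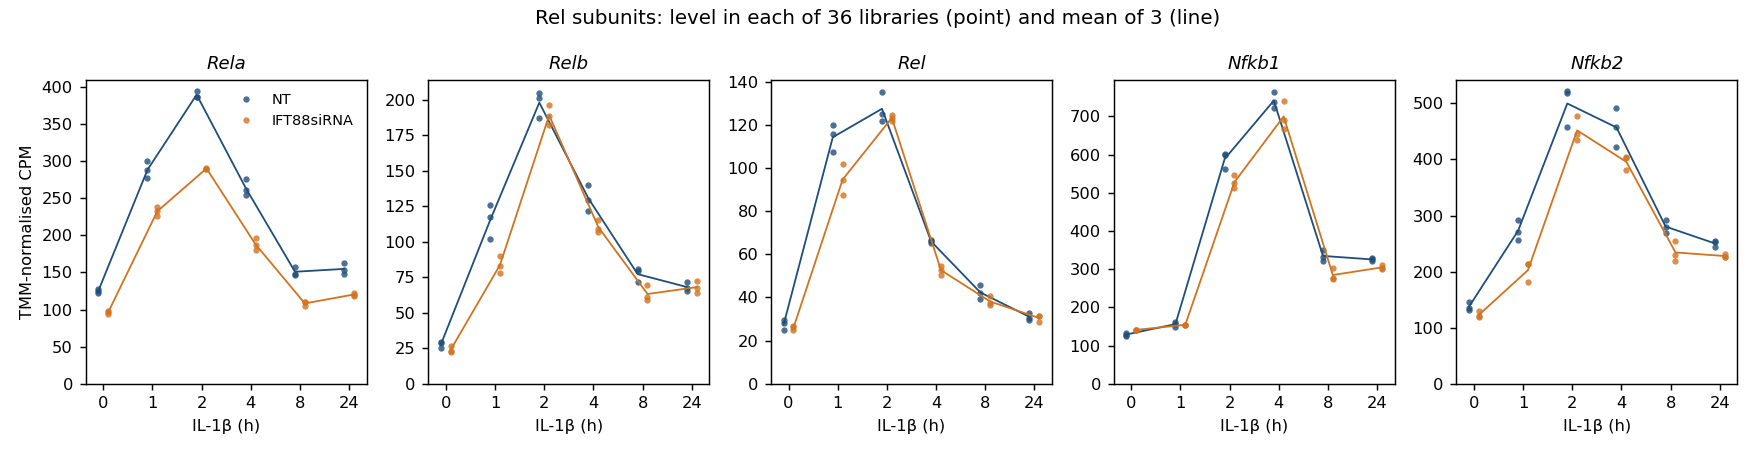
TMM-normalised CPM of the 5 Rel subunit genes (y axes, each from 0) against hours of IL-1β (x axes, evenly spaced categories). Points are single libraries, lines join the means of 3 libraries, and colours separate NT from IFT88siRNA. *Rela* points of IFT88siRNA lie below those of NT at all 6 times, whereas for *Rel* both groups overlap at 4 of the 6 times.

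*Rela*, which encodes the transactivating P65 subunit, was at 128, 122 and 125 CPM in the 3 NT libraries at 0 h. It reached 288, 277 and 299.9 at 1 h and 394, 387 and 387 at 2 h. At 4, 8 and 24 h it was at 261, 253 and 276, then 147, 148 and 157, then 163, 153 and 148. The libraries of 1, 2 and 4 h lay above every 0 h library by a wide margin, and those of 8 and 24 h by a small one. The log2 change from 0 h was 1.20 (SE 0.0450, adjusted p = 6.76e-17) at 1 h, 1.64 at 2 h, a fold of 3.11, 1.08 at 4 h and 0.31 at 24 h.

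*Relb*, whose product pairs with processed *Nfkb2* product in the alternative pathway, had the largest rise among the Rel subunits. Its CPM in NT were 29.0, 29.3 and 25.2 at 0 h, 117, 102 and 126 at 1 h and 202, 187 and 205 at 2 h. They then fell to 129, 122 and 140.2 at 4 h, 80.8, 71.8 and 79.2 at 8 h and 71.7, 65.7 and 67.2 at 24 h. No library after IL-1β overlapped with those of 0 h. The log2 change at 2 h was 2.82 (SE 0.0750, adjusted p = 4.34e-20), a fold of 7.08, and at 24 h it was still 1.29.

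*Rel*, encoding c-Rel, rose as early as *Relb* but returned further. NT libraries held 28.0, 29.6 and 24.8 CPM at 0 h, 116, 107 and 120.0 at 1 h and 122, 135 and 125 at 2 h. By 24 h they held 32.9, 30.6 and 29.6, and 1 of these libraries lay at the level of the highest 0 h library. The log2 change fell from 2.21 at 2 h (SE 0.0648, adjusted p = 3.03e-19) to 0.17 (SE 0.0691, adjusted p = 0.0428) at 24 h, which is below the 1.5-fold limit. The 24 h change no longer had an adjusted p under 0.05 with upper-quartile scaling (0.128), with the TPM values and in 4 of the fits that left out a library.

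The precursor genes followed different courses. *Nfkb1* was at 133, 128 and 126 CPM at 0 h in NT and only at 157, 149 and 163 at 1 h. It then rose to 603, 563 and 600.1 at 2 h and 739, 721 and 764 at 4 h, and was at 333, 322 and 349 at 8 h and 330.0, 326 and 321 at 24 h. All 5 later groups were separate from 0 h, with log2 changes of 0.27, 2.19, 2.53, 1.38 and 1.34 (SE 0.0452 and adjusted p = 1.38e-23 at 4 h). *Nfkb2* rose earlier, from 145, 132 and 135 at 0 h to 271, 256 and 293 at 1 h and 519, 458 and 522 at 2 h, and held 252, 255 and 244 at 24 h. Its log2 changes were 0.99, 1.86, 1.74, 1.03 and 0.87 (SE 0.0608 and adjusted p = 2.54e-18 at 2 h).

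**Figure D2:**
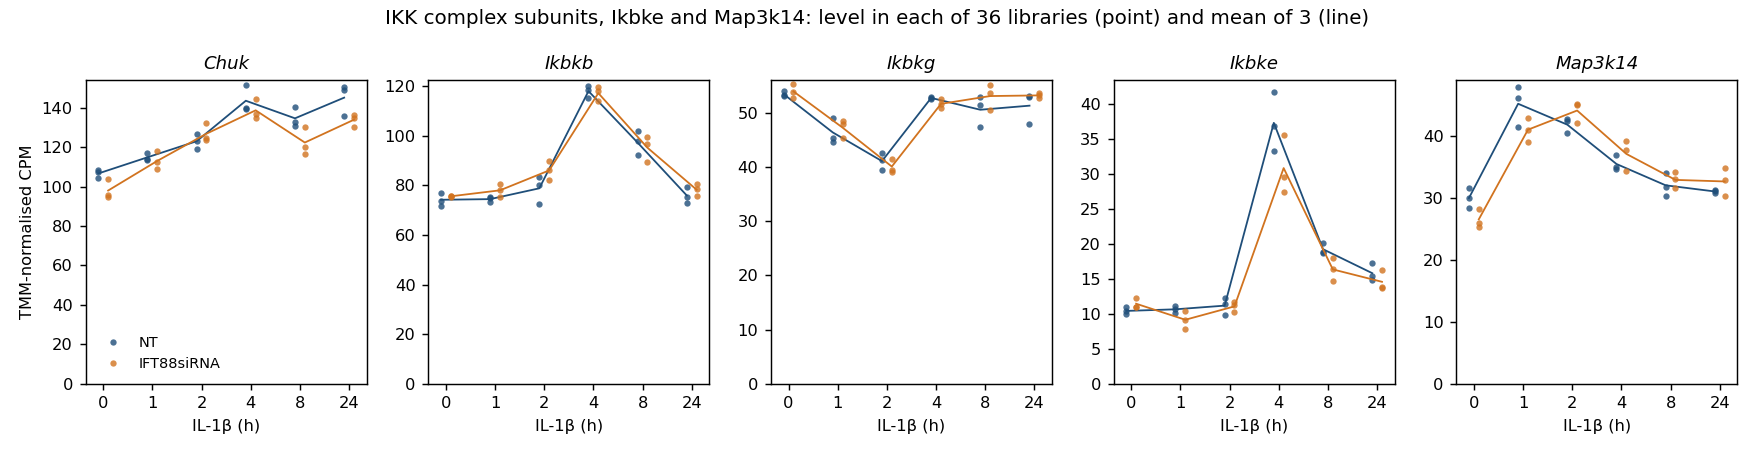
TMM-normalised CPM of the 3 IKK complex subunit genes, *Ikbke* and *Map3k14* (y axes, each from 0) against hours of IL-1β (x axes, evenly spaced categories). Points are single libraries and lines join the means of 3 libraries. *Ikbke* and *Ikbkb* are highest at 4 h in both groups, and *Ikbkg* is lowest at 2 h.

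Transcripts of the IKK complex itself moved little. *Ikbkb*, encoding the main IκB kinase of the canonical pathway, was at 77.04, 71.9 and 73.7 CPM at 0 h and 80.4, 72.5 and 83.6 at 2 h in NT. At 4 h all 3 libraries were higher, at 115, 120.2 and 119, and by 24 h they were back at 73.0, 75.5 and 79.2. The log2 change was 0.68 (SE 0.0504, adjusted p = 1.79e-11) at 4 h, a fold of 1.601, which lies close to the 1.5-fold limit. With upper-quartile scaling, or with the TPM values, *Ikbkb* was no longer called in NT.

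*Chuk* and *Ikbkg* did not reach a 1.5-fold change at any time in either siRNA group. *Chuk*, encoding IKKα, went from 104, 109 and 107 CPM at 0 h to 139, 151 and 140.0 at 4 h and 136, 149 and 150.4 at 24 h. The 4 and 24 h groups lay above 0 h without overlap, by 0.44 and 0.45 on the log2 scale (adjusted p = 1.6e-08 and 2.18e-08). Both changes are below 1.5-fold, and with the TPM values they had an adjusted p of 0.232 at 4 h and 0.0539 at 24 h by limma, and at 2 h the sign of the *Chuk* change differed, at 0.20 from counts and −0.18 from TPM. *Ikbkg*, encoding NEMO, fell in NT, from 53.9, 53.3 and 53.0 at 0 h to 39.4, 41.2 and 42.5 at 2 h, a log2 change of −0.38 (SE 0.0533, adjusted p = 1.1e-06). At 4 h it was back at 52.6, 53.0 and 52.6 CPM (−0.01), whereas the TPM values gave −0.42 at 4 h (adjusted p = 7.9e-05 by limma).

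*Ikbke*, whose product is an IKK-related kinase close to TBK1, did not pass the test at 1 or 2 h in the NT counts and then rose. In NT it was at 10.9, 9.90 and 10.4 CPM at 0 h, 10.7, 10.2 and 11.1 at 1 h and 11.4, 9.89 and 12.2 at 2 h, which overlap. With the TPM values it was lower at 2 h, by a log2 change of −0.34 (adjusted p = 0.034 by limma). At 4 h the libraries held 33.2, 36.8 and 41.7, at 8 h 18.6, 18.9 and 20.2 and at 24 h 15.4, 14.8 and 17.2, all above 0 h. The log2 change was 1.85 (SE 0.0860, adjusted p = 1.74e-15) at 4 h, a fold of 3.60. In IFT88siRNA *Ikbke* was lower at 1 h, with a log2 change of −0.32 (SE 0.116, adjusted p = 0.0283), and higher at 4 h, with 1.43. There it did not reach 1.5-fold at 8 h (a fold of 1.43) or 24 h (1.27). A different response of *Ikbke* between the siRNA groups did not pass the test (adjusted p = 0.358 by edgeR). *Map3k14*, the NIK gene, was highest at 1 h in NT, moving from 31.6, 29.98 and 28.4 at 0 h to 48.0, 41.5 and 46.2 at 1 h, which is 0.59 (SE 0.0585, adjusted p = 9.07e-09) and a fold of 1.502, at the limit of the call. It was not called with upper-quartile scaling or with the TPM values.

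At single time points, the number of the 10 genes that were higher by more than 1.5-fold in NT was 5 at 1 h (9.22% of all genes), 5 at 2 h (13.0%), 7 at 4 h (16.3%), 5 at 8 h (11.8%) and 4 at 24 h (6.61%). The median log2 change of the 10 genes was 0.43, 1.06, 1.18, 0.51 and 0.38 at these times, against a median over all genes tested between −0.02 and −0.01. The 4 genes that remained called at 24 h were *Relb*, *Nfkb1*, *Nfkb2* and *Ikbke*. In IFT88siRNA the changes from 0 h ran alongside, with *Rela* at 1.27, 1.59, 0.97, 0.17 and 0.32, *Relb* at 1.79, 2.97, 2.20, 1.39 and 1.499 and *Nfkb1* at 0.13, 1.90, 2.31, 1.01 and 1.11 on the log2 scale. The mean of *Map3k14* was highest at 1 h in NT and at 2 h in IFT88siRNA, but the libraries of 1 and 2 h overlapped in both groups, and a different response did not pass the test (adjusted p = 0.125).

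**Figure D3:**
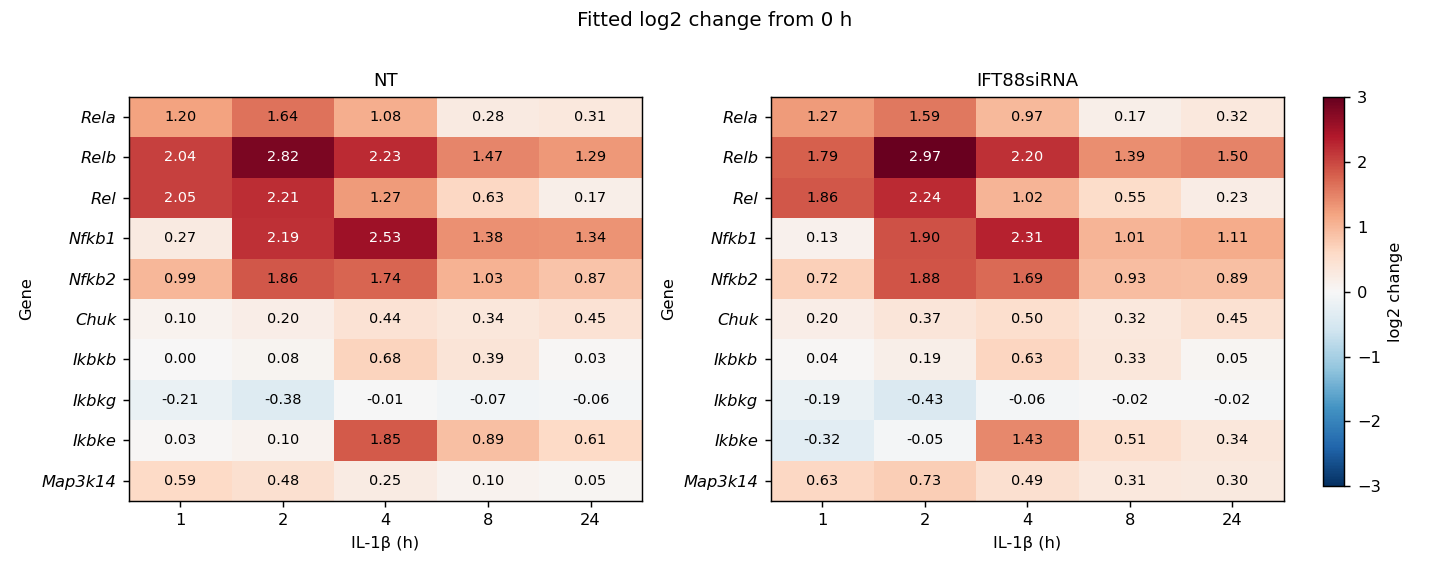
Fitted log2 change from 0 h for the 10 genes (rows) at 1 to 24 h of IL-1β (columns), in NT (left) and IFT88siRNA (right), with the value written in each cell. Red is higher and blue lower than 0 h. The largest values are those of *Relb* at 2 h, 2.82 in NT and 2.97 in IFT88siRNA.

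The siRNA groups differed in *Rela*, and by less than 1.5-fold in every gene of the 10. In the IFT88siRNA libraries *Rela* was at 93.7, 98.1 and 96.5 CPM at 0 h, 226, 232 and 238 at 1 h and 289, 289.7 and 290.4 at 2 h. At 4, 8 and 24 h it was at 179.7, 196 and 186, then 111, 104 and 109, then 119, 120.0 and 122. At each of the 6 times the highest IFT88siRNA library lay below the lowest NT library, as was the case for 0.832% of all 16710 genes. The log2 difference (IFT88siRNA minus NT) was −0.38, −0.32, −0.43, −0.50, −0.50 and −0.37 at the 6 times in order, with adjusted p from 9.43e-07 at 0 h to 0.000424 at 8 h. Averaged over the 6 times it was −0.41 (SE 0.0174, adjusted p = 8.05e-20), a fold of 0.754, and by p-value *Rela* ranked 7 of the 16710 genes. In bulk RNA, fewer cells expressing a gene and less RNA per cell cannot be told apart. These values are of RNA, and the study reported no significant difference in P65 protein between NT and IFT88siRNA cells.

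**Figure D4:**
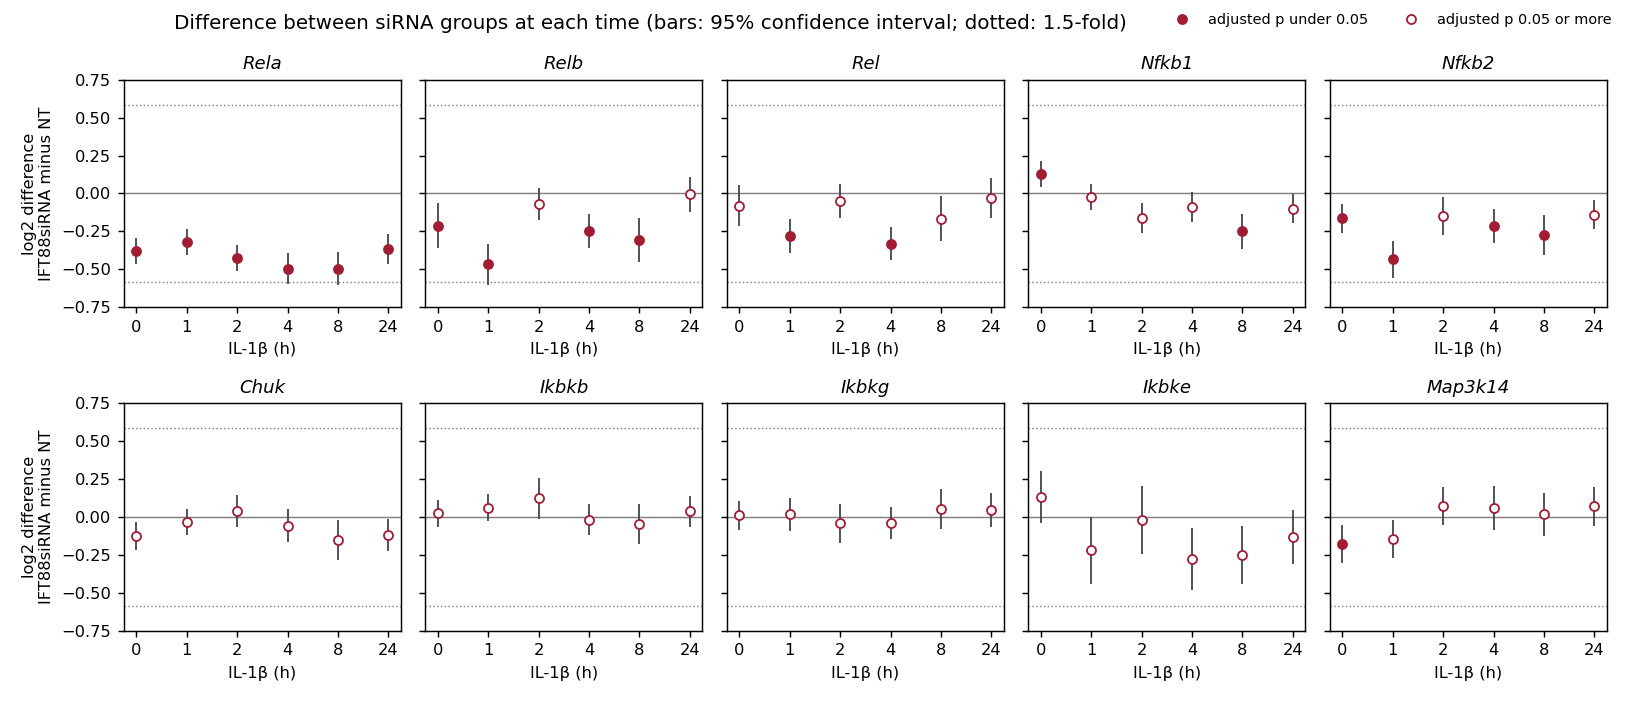
Log2 difference in expression, IFT88siRNA minus NT (y axes), for the 10 genes at each time of IL-1β (x axes), from the 3 against 3 libraries of that time. Bars are 95% confidence intervals, filled points have an adjusted p under 0.05, and dotted lines mark a 1.5-fold difference. The *Rela* points lie between −0.50 and −0.32 and no point of any gene reaches a dotted line.

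Past both thresholds, 0 of the 10 genes were called at 0 h (2.23% of all genes were), 1 h (2.66%), 2 h (0.496%), 4 h (0.432%), 8 h (0.692%) or 24 h (1.15%) by edgeR, and 0 by DESeq2 or by limma on TPM. At an unadjusted p under 0.05 with the same fold limit the count was also 0, and without the fold limit it was 6 at 0 h (32.1% of all genes), 5 at 1 h (32.4%), 3 at 2 h (17.2%), 5 at 4 h (17.9%), 7 at 8 h (21.1%) and 4 at 24 h (22.2%). The shares of all genes past both thresholds rest in part on single libraries. The 105 genes called at 8 h became 47 to 583 without 1 library (583 without IFT88siRNA replicate 3), the 73 at 2 h became 22 to 208, and the 64 at 4 h became 23 to 140. With the adjusted p alone, 5 of the 10 genes differed at 0 h (19.5% of all genes), 4 at 1 h (19.0%), 1 at 2 h (2.76%), 4 at 4 h (3.85%), 4 at 8 h (4.25%) and 1 at 24 h (8.66%). *Rela* was in each of these counts, and was the one gene at 2 and 24 h. Over the 6 times together, 0 genes passed with the fold limit (5.19% of all genes) and 7 without it (31.8%).

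Averaged over the 6 times, 7 of the 10 genes were lower in IFT88siRNA and none was higher, where 39.7% of all genes differed, 18.5% were lower and 21.3% higher. The 5 Rel subunits were all among the 7. *Nfkb2* differed by −0.22 (SE 0.0259, adjusted p = 1.34e-08), *Relb* by −0.21 (SE 0.0302, adjusted p = 7.06e-07), *Rel* by −0.15 (SE 0.0257, adjusted p = 1.41e-05) and *Nfkb1* by −0.08 (SE 0.0180, adjusted p = 0.000939). For *Ikbke* the mean difference was −0.12 (SE 0.0427, adjusted p = 0.0229) and for *Chuk* −0.07 (SE 0.0199, adjusted p = 0.00671). The *Ikbke* call was lost without NT replicate 3 (adjusted p = 0.277), without IFT88siRNA replicate 1 (0.108) and by limma on TPM without a filter (0.0534). The *Chuk* call was lost without NT replicate 2 (0.0587) and without the filter on low counts (0.0624). The median of the 10 mean differences was −0.10 and that of all genes −0.00267.

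*Relb* and *Nfkb2* were lowest against NT at 1 h. At that time *Relb* was at 78.1, 82.9 and 89.9 CPM in IFT88siRNA, all below the 117, 102 and 126 of NT, a log2 difference of −0.47 (SE 0.0643, adjusted p = 0.000156). At 2 h it was at 189, 182 and 196, which overlaps with NT, and the difference was −0.07 (95% interval −0.18 to 0.04). *Nfkb2* at 1 h was at 181, 214 and 213, below all NT libraries, a difference of −0.44 (SE 0.0590, adjusted p = 0.000137). Over the 6 times the *Nfkb2* libraries of the 2 groups did not overlap at 5 and those of *Relb* at 3. How many of all genes were separate at as many times was not counted, so these numbers are descriptive only.

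*Rel* in IFT88siRNA was at 94.6, 87.6 and 102 CPM at 1 h and 50.3, 52.9 and 54.7 at 4 h, the 2 times at which it lay below NT without overlap. The differences were −0.28 (SE 0.0534, adjusted p = 0.00201) and −0.33 (SE 0.0513, adjusted p = 0.00147). The fitted *Nfkb1* difference had both signs. *Nfkb1* was at 140.2, 142 and 141 at 0 h in IFT88siRNA, a difference from NT of 0.13 (SE 0.0412, adjusted p = 0.0294), and at 302, 277 and 275 at 8 h, a difference of −0.25 (SE 0.0527, adjusted p = 0.0258). Both depended on single libraries, since leaving out NT replicate 3 gave an adjusted p of 0.125 at 0 h and 0.133 at 8 h. The 0 h difference had an adjusted p above 0.05 with the replicate block (0.0705), the fit of 36 libraries (0.0538) and upper-quartile scaling (0.0506). At 0, 4 and 8 h the adjusted p of *Relb* and *Nfkb2* also rose above 0.05 without some libraries, as at 8 h without any 1 of the 3 NT replicates (adjusted p from 0.0506 to 0.134 for *Relb* and from 0.0806 to 0.143 for *Nfkb2*). With the TPM values and limma, only the *Rela* differences and those of *Nfkb2* at 0 and 1 h kept an adjusted p under 0.05 among those that had it from counts at single times, and without a filter *Nfkb2* at 1 h lost it too (0.104). *Rela* kept an adjusted p under 0.05 at all 6 times without any 1 library, and lost it at 1 h (0.0652) and 4 h (0.0526) by limma on TPM without a filter.

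*Ikbkb*, *Ikbkg* and *Map3k14* did not pass the test of the mean difference. The 95% interval of their mean log2 difference was 0.00 to 0.08 for *Ikbkb*, −0.02 to 0.06 for *Ikbkg* and −0.06 to 0.04 for *Map3k14*. At 0 h *Map3k14* was at 26.0, 28.3 and 25.4 CPM in IFT88siRNA against 31.6, 29.98 and 28.4 in NT, a difference of −0.18 (SE 0.0610, adjusted p = 0.0432). It rose above 0.05 under 7 of the other settings, among them DESeq2 (adjusted p = 0.0851), and without 4 of the 6 libraries in turn.

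The change from 0 h itself differed between the siRNA groups in *Nfkb1* and *Relb*. Past both thresholds 0 of the 10 genes had a different response by edgeR (1.20% of all genes did) and 0 by DESeq2, while 6 had an unadjusted p under 0.05 (16.8% of all genes did). With the adjusted p alone the count was 2 (5.53% of all genes). For *Nfkb1* the terms were −0.15, −0.29, −0.21, −0.36 and −0.23 on the log2 scale from 1 to 24 h (adjusted p of the 5 terms together = 0.00272). The single terms that passed were those of 2 h, at −0.29 (SE 0.0627, adjusted p = 0.0135), and 8 h, at −0.36 (SE 0.0630, adjusted p = 0.000773). All 5 terms subtract the same 0 h libraries, in which *Nfkb1* was higher in IFT88siRNA by 0.13, so their common sign is shared. In the fits of single times, the direct differences at 1, 2, 4 and 24 h (−0.02, −0.16, −0.09 and −0.10) did not pass. The 2 h term rose above 0.05 without NT replicate 1 (adjusted p = 0.118), NT replicate 3 (0.109) or IFT88siRNA replicate 2 (0.0607) and by limma on TPM without a filter (0.0549). For *Relb* the terms were −0.25, 0.14, −0.03, −0.08 and 0.21, of both signs, with an adjusted p of 0.0251 together and none that passed alone. The joint result of *Relb* was lost by limma on TPM (0.0864) and in 5 of the 6 fits that left out a replicate (0.0614 to 0.167), and that of *Nfkb1* in 1, without NT replicate 3 (0.0587). The response of *Rela* did not pass, with terms of 0.07, −0.05, −0.11, −0.10 and 0.02 (adjusted p = 0.238) and a 95% interval of −0.23 to 0.01 at 4 h.

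The make-up of the Rel subunit transcripts shifted with time. Their summed level in NT was 281 ± 6.55 TPM at 0 h, 934 ± 47.1 at 2 h and 479 ± 8.91 at 24 h (SD, n = 3). In IFT88siRNA it was 243 ± 1.002, 814 ± 23.4 and 423 ± 5.57 at these times. *Rela* made up 32.3% ± 0.524 of the NT sum at 0 h, 34.7% ± 0.748 at 1 h and 18.6% ± 0.0887 at 4 h. *Nfkb1* went the other way after 1 h, from 15.4% ± 0.457 to 40.5% ± 0.877 at 4 h. *Nfkb2* held between 26.5% and 30.8% of the NT sum at all times, and *Rel* between 1.54% and 5.08%. In IFT88siRNA at 0 h *Rela* made up 27.3% ± 0.561 and *Nfkb1* 31.6% ± 0.170, so that their order in TPM was the reverse of NT. At 1 h the *Rela* share was 34.7% ± 0.770 and within the spread of NT. Shares of a sum are tied to each other, and no test was run on them. They also depend on how length is taken. By CPM per exonic kilobase, *Rela* was at 40.7 and *Nfkb1* at 10.7 in NT at 0 h. In IFT88siRNA at 0 h *Rela* held 96.1 CPM over 3072 exonic bases and *Nfkb1* 141 CPM over 12061. Per exonic base *Rela* was thus above *Nfkb1* in IFT88siRNA as well. The reversed order holds for TPM only and not by this measure.

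The IKK complex genes summed to 165 ± 5.59 TPM in NT at 0 h and to 184 ± 6.83 at 4 h. *Chuk* made up 55.3% ± 0.566 of this sum at 0 h and 61.9% ± 2.51 at 24 h, *Ikbkb* 25.9% ± 0.668 and 22.8% ± 1.24, and *Ikbkg* 18.8% ± 1.23 and 15.3% ± 1.3. *Chuk* held the largest share in all 12 conditions.

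**Figure D5:**
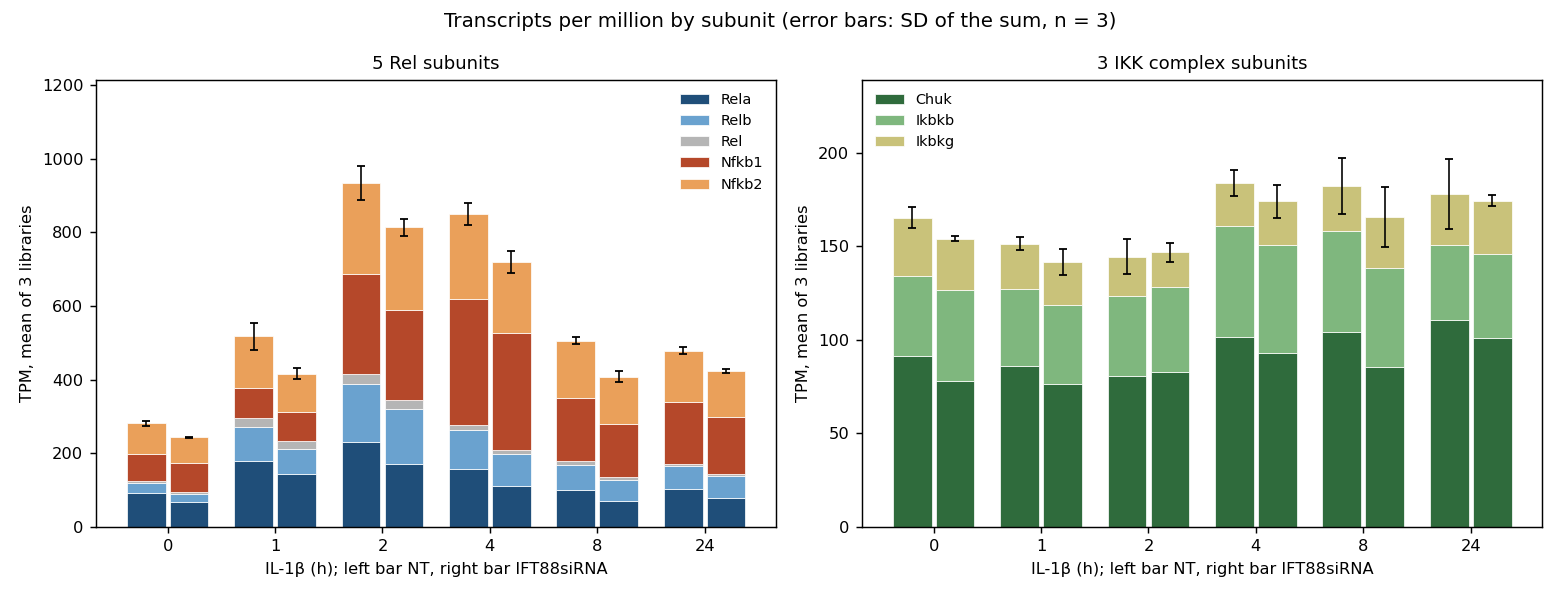
TPM of the 5 Rel subunit genes (left) and the 3 IKK complex subunit genes (right), stacked as means of 3 libraries (y axes from 0), against hours of IL-1β, with NT as the left and IFT88siRNA as the right bar of each pair. Error bars are the SD of the summed TPM over 3 libraries. The Rel subunit sum is highest at 2 h, at 934 TPM in NT and 814 TPM in IFT88siRNA.

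Other genes of the pathway were read from lists, with the 2 largest NT changes of each named. Over all genes, 50.0% were called in NT, and in the mean siRNA difference 18.5% were lower and 21.3% higher in IFT88siRNA, and several lists lie near these shares. Of 7 genes listed as the IκB family, 7 were called in NT. Ahead were *Nfkbiz* (5.52 at 1 h on the log2 scale), which encodes the nuclear protein IκBζ, and *Nfkbid*, which was near 0 counts before IL-1β. The list also held *Nkrf*, whose product is not an IκB protein. By the mean siRNA difference, 6 of the 7 listed genes were lower in IFT88siRNA and 0 higher. Among 6 genes of ubiquitin-based feedback, 3 were called in NT, with *Tnfaip3* (6.41 at 1 h), which encodes A20, and *Zc3h12a* (5.28 at 2 h) ahead, and 2 were lower and 1 higher in IFT88siRNA. From the IL-1 receptor to the kinase TAK1, 9 of 15 genes were called in NT, with *Irak3* (2.60 at 8 h) and *Myd88* (2.17 at 4 h) ahead, and 5 were lower and 3 higher in IFT88siRNA. *Myd88*, the adaptor of the IL-1 receptor, was higher by a mean of 0.13, adjusted p = 5.63e-06.

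Genes of NIK turnover and of the receptors of the alternative pathway gave 9 of 10 called in NT, with *Cd40*, also near 0 counts at 0 h, and *Birc3* (2.71 at 2 h) ahead, and 3 lower and 2 higher in IFT88siRNA. TBK1 and its partners gave 6 of 6, with *Traf3ip2* (1.47 at 4 h) and *Azi2* (1.46 at 4 h), and 2 lower and 0 higher. Regulators of RelA gave 2 of 8, a rise of *Socs1* (2.42 at 2 h) and a fall of *Pdlim2* (−1.31 at 8 h), and 0 lower and 4 higher, *Pdlim2* among them at 0.21, adjusted p = 2.57e-05. NFκB target genes gave 19 of 20, led by *Nos2* and *Cxcl5* (11.15 at 24 h), and 15 were lower and 1 higher in IFT88siRNA. *Nos2* was not among the 15, since its mean difference did not pass the test (adjusted p = 0.682 by edgeR). No fold is given for *Nos2*, *Nfkbid* and *Cd40*, which held 0.0141, 0.114 and 0.0574 CPM in NT at 0 h, since the fitted size then depends on the prior count. The lists were drawn up with earlier results of these data known, and their counts are no independent evidence of a direction. The median mean difference between the siRNA groups was −0.49 for the 20 target genes and −0.21 for the 7 genes of the IκB list, *Nkrf* included. It was −0.00267 for all genes. The mean difference of *Rela* alone was −0.41, and a link between it and the target genes was not tested. Some target genes, among them *Tnfaip3* and *Birc3*, are also in other lists.

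Across the 12 condition means, the pairs of the 10 genes had Pearson r from −0.868 to 0.956, with a median of 0.455. *Rel* and *Map3k14* had an r of 0.956, *Relb* and *Nfkb2* 0.947, *Rela* and *Rel* 0.938, and *Ikbkb* and *Ikbke* 0.908, whereas *Rela* and *Nfkb1* had 0.459, *Rela* and *Ikbkb* 0.106 and *Rela* and *Ikbke* −0.03. *Ikbkg* ran against *Rel* (r = −0.868). Among 10311 protein-coding genes with a mean of at least 5 CPM, the 3 courses most like that of *Rela* were those of *Spry2* (r = 0.984), *Ranbp2* and *Fosl1*. *Relb* was nearest to *Nfkbie* (0.987), *Mapkapk2* and *Tnfaip2*, *Rel* to *Sik1* (0.988), *Dusp10* and *Stx11*, *Nfkb1* to *Daam1* (0.987), *Eaf1* and *Tbx3*, and *Nfkb2* to *Ripk2* (0.993), *Pvr* and *Elp5*. Of the kinase and scaffold genes, *Ikbkb* was nearest to *Cmpk2* (0.985), *Tap2* and *Lap3*, *Ikbke* to *Whamm* (0.989), *Pdzd2* and *Sipa1l2*, and *Map3k14* to *Ankrd1* (0.9746), *Gadd45b* and *Maff*. *Ikbkg* was nearest to *Tmem18* (0.977), *Adprhl2* and *Mbd4*, and *Chuk* to *Gnl2* (0.960), *Angptl4* and *Ppm1h*. These correlations are over 12 means that share the IL-1β time points, and they are given without a test.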

How the data were processed

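Poly(A) RNA of 36 libraries had been sequenced paired-end. Per the labels and the study's methods, the authors aligned reads to GRCm38 with HISAT2 2.1.0 and deposited raw gene counts from featureCounts (Subread 1.6.3, default settings, Ensembl annotation). The authors also deposited TPM from Salmon 0.9.1. From the counts, low genes were removed with filterByExpr, libraries were scaled with TMM, and quasi-likelihood F-tests were run with edgeR 4.0.16 (R 4.3.3) with Benjamini-Hochberg adjustment over all genes tested. A gene was called at an adjusted p under 0.05 and a fold change over 1.5, and for the mean siRNA difference at the adjusted p alone. Each time course used the 18 libraries of its siRNA group, single times used 6 libraries, and mean differences and different responses used 36. Unless another tool is named, p-values are from edgeR.

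Samples were grouped by their titles. All 10 genes are named, with *Ift88*, the 2 largest NT changes per list, and the 3 most similar courses per gene. The genes and lists were chosen with earlier results of these data known. Alternatives covered scaling (DESeq2 size factors, upper quartile), the count filter, DESeq2 1.42.0, limma 3.58.1 on log2(TPM + 1) with at least 1 TPM in 3 libraries, the replicate block and leaving out libraries. Depth (19337022 to 38304127 counts per library) sets the counting error, and replicate spread exceeded it. On simulated counts, 100% of 200 genes changed by 1 on the log2 scale were recovered in each of 4 comparisons, with 3, 3, 12 and 3 false calls. The siRNA differences of the 10 genes were all smaller than this, so the recovery does not speak for changes of their size.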

Additional observations from a re-analysis of the deposited data

Results flagged for a closer look

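*Nfkb1* and *Relb* are listed here because their change from 0 h differed between IFT88siRNA and NT by the test of the difference itself. The adjusted p of the 5 terms together was 0.00272 for *Nfkb1* and 0.0251 for *Relb* (edgeR). The *Nfkb1* terms ran from −0.36 at 8 h to −0.15 at 1 h on the log2 scale, of which those of 2 and 8 h passed alone, and the *Relb* terms from −0.25 at 1 h to 0.21 at 24 h. The terms of a gene share their 0 h libraries, so that a common sign is not support from separate times. Neither gene reached a 1.5-fold difference in response. The joint adjusted p of *Relb* rose above 0.05 by limma on log2(TPM + 1) (0.0864). By edgeR it also did so in most fits that left out a replicate (up to 0.167). That of *Nfkb1* did so by edgeR without NT replicate 3 (0.0587).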

How the results depend on the processing

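Without the 1.5-fold limit, 5, 4, 1, 4, 4 and 1 of the 10 genes differed between the siRNA groups at 0, 1, 2, 4, 8 and 24 h, 7 over the 6 times and 2 in response, in place of 0 in each. Without 1 library, the count with the adjusted p alone ranged from 1 to 5, 4 to 5, 1 to 3, 2 to 5, 1 to 6 and 1 to 2 at these times, and under the other settings from 1 to 5, 0 to 4, 1 to 2, 0 to 5, 1 to 4 and 1 to 2. With both thresholds, leaving out libraries gave 7 to 8 genes in the NT course and 8 to 8 in the IFT88siRNA course. At each time, over the 6 times and in response it gave 0 to 0. For the mean difference, which was called at the adjusted p alone, it gave 6 to 7. Upper-quartile scaling gave 6 genes in the NT course and 7 in the IFT88siRNA course, and limma on TPM gave 6 in both. Levels by CPM per exonic kilobase kept the rank of 2 of the 10 genes. The sign differed for *Chuk* in NT at 2 h, with −0.184 by limma on log2(TPM + 1) and also without a filter, and −0.186 with a pseudocount of 0.1. It also differed for *Map3k14* in NT at 4 h, with −0.0135, −0.0135 and −0.0145. The cause was not tested. Over all single gene values, 2885 stayed on their side of the adjusted p threshold, 112 rose above it, 37 fell below it and 6 that had passed it changed sign. Values that had not passed also changed sign in places.

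Counts over all genes moved by more than 1.5 times in several siRNA comparisons, and without 1 library they ranged from 275 to 368, 217 to 457, 22 to 208, 23 to 140, 47 to 583 and 103 to 185 at the 6 times. At 0, 1, 2, 4, 8 and 24 h they were 341, 393, 73, 64, 105 and 175 by edgeR and 123, 135, 28, 24, 36 and 61 by limma on log2(TPM + 1). With a pseudocount of 0.1 limma gave 143, 133, 28, 25, 36 and 65, and without a filter 75, 51, 11, 13, 22 and 34. DESeq2 gave 169, 217, 34 and 116 at 0, 1, 4 and 24 h. The fit of 36 libraries gave 142 at 2 h and 231 at 8 h, and no count filter gave 137, 100 and 245 at 2, 4 and 8 h and 345 different responses in place of 201. Over the 6 times limma gave 421 and, without a filter, 367 in place of 868, and the latter gave 115 different responses. Without the fold limit the courses held 14188 genes in place of 8017 (NT) and 13875 in place of 7781 (IFT88siRNA).

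Replicate numbers were not used as pairs in the main tests. Of 18 same-numbered pairs of NT and IFT88siRNA at the same time, 2 correlated over 0.1 in their deviations from the condition means (r from −0.13 to 0.22). Over any 2 conditions, 29 of 198 same-numbered pairs did, and 33 of 396 pairs with different numbers. These correlations cannot exclude a pairing. With a replicate block the counts of the 10 genes were 8 and 8 in the courses, 0 at each time, 0 over the 6 times, 7 in the mean difference and 0 in response, and over all genes the count at 2 h was 115.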
